A study of Mus musculus with 20 samples.

Results

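Homozygous Mysm1-mutant mouse embryonic fibroblasts (MEF) were compared with wild-type MEF across all measured genes. The comparison takes the 3 samples labelled homozygous MEF and the 4 labelled wild-type MEF, 7 of the 20 samples of a series that also holds 4 heterozygous MEF samples and 9 embryonic stem cell (ESC) samples. The mutant allele is Mysm1tm1a(KOMP)WTSI, carried on both copies in the homozygous group (hom), on 1 copy in the heterozygous group (het) and on neither in the wild type (wt), on a C57BL/6 background throughout. MEF are mesenchymal cells grown out of mouse embryos. The design text puts 3 to 4 animals in each MEF group. Embryonic age, passage number and the sex of the embryos are not given in the sources used here.

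Mysm1 encodes a deubiquitinase that removes ubiquitin from histone H2A, a mark that Polycomb repressive complexes place on silenced genes. The protein carries a SWIRM domain, a SANT domain and a JAMM-type metalloprotease domain, and it is best known for its part in making blood cells. Alleles of the tm1a type carry a cassette that is designed to trap the transcript of the gene before its later exons, and some normal splicing around the cassette can remain. No treatment of the cultures is given in the sources used here.

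Expression was read on Illumina bead arrays of 45281 probes, and values below are log2 intensities after background correction and quantile normalization of the 11 MEF arrays together. A probe counted as detected where its detection p, the share of negative control beads at least as bright, was under 0.01. Probes detected on at least 3 MEF arrays were tested, 15125 probes of 8999 genes, and each gene was read by its brightest tested probe. Differences are hom minus wt on the log2 scale with the standard error (SE) of a limma fit to the 11 MEF arrays. Adjusted p is Benjamini-Hochberg over all 15125 probes with a threshold of 0.05. The number of arrays, 3 against 4, limits the precision. An exact two-sided permutation test of 3 against 4 arrays cannot go below 0.0571.

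The cells carried fibroblast transcripts on every array. Of 43 fibroblast and extracellular matrix genes on the array 41 were measured, with the collagen gene Col1a1 at 11.83 to 12.77 in wt and 12.35 to 12.87 in hom. The arrays did not separate by genotype first. Principal component 1 carried 68.0% of the variance and set wt 2, wt 3, het 3, het 4 and hom 3 apart from the other arrays, crossing all 3 genotypes, while hom arrays lay at the low end of the third component (5.47% of the variance). Raw median signal was 53.2 to 59.95 on 10 arrays and 95.7 on hom 3, and 28.5% to 31.8% of probes were detected. No slide held both hom and wt arrays: wt 1 to 3 shared slide 1 with het 1 to 3, hom 1 and hom 2 shared slide 4 with het 4, and wt 4 and hom 3 were the only MEF arrays on their slides. Whether the first component, the slides or the bright raw signal of hom 3 play a part in the results below was not tested beyond the values given.

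**Figure D1:**
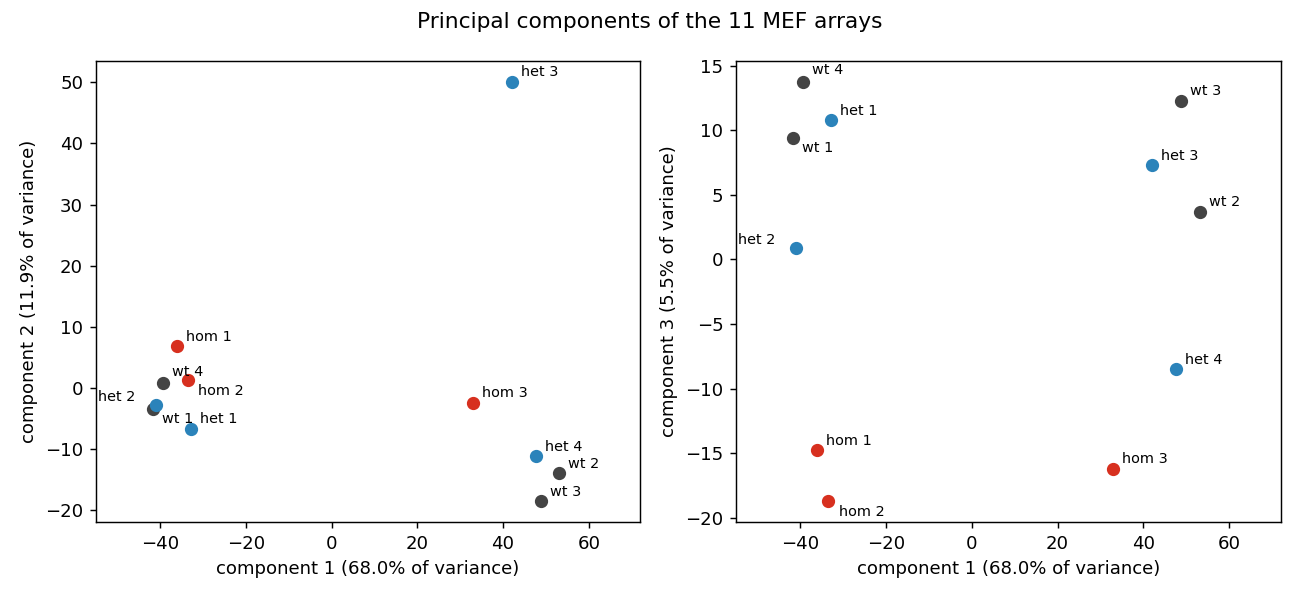
Scores of the 11 MEF arrays on the first 3 principal components of log2 intensity, 1 point per array, coloured by genotype (grey wt, blue het, red hom). Component 1, with 68.0% of the variance, splits each genotype, and on component 3 the 3 hom arrays lie at −14.76 to −18.71, below all wt and het arrays.

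Mysm1, read first as the check of the labels, was lowest on the 3 hom arrays. Its detected probe (ILMN_3119954, gene at chr4:94942037-94979155 in GRCm38.p6) lay at 7.41, 7.51, 6.98 and 7.42 in wt 1 to 4, at 6.38, 6.41, 6.73 and 6.46 in het 1 to 4, and at 5.43, 5.40 and 4.98 in hom 1 to 3. The 3 genotypes formed an order with no overlap. Mysm1 fell by 2.06 ± 0.184 (SE) with a limma adjusted p of 0.00465 and an exact permutation p of 0.0571, and the signal left was 24% of that in wt. The probe was detected on 2 of 3 hom arrays, so the measured share is held up by background on hom 3. Its position relative to the cassette is not known here, and the other 3 probes of Mysm1 were detected on no MEF array.

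Beyond Mysm1, no probe changed at the threshold. Of 15125 probes 1 fell and 0 rose in limma (0.00661% called), and 387 had an unadjusted p under 0.05 (2.56%). By the values of single arrays, 227 of 8999 genes had every hom array below every wt array (2.52%) and 230 had every hom array above every wt array (2.56%). With a difference of at least 0.5 these counts were 91 lower (1.01%) and 29 higher (0.322%). Under median scaling in place of quantile normalization, genes without overlap split into 98 lower and 413 higher. With hom 3 left out, 820 of 8947 genes had both remaining hom arrays below every wt array (9.17%) and 1343 above (15%). Leaving out hom 1 gave 326 lower and 334 higher, and leaving out hom 2 gave 301 lower and 322 higher. The setting without hom 3 was singled out once values were seen. Fewer hom arrays make no overlap easier to reach, so these counts cannot be set directly against those with all 3. The plot of difference against p shows all 8999 genes, with Mysm1 the 1 gene that stands apart from the rest.

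**Figure D2:**
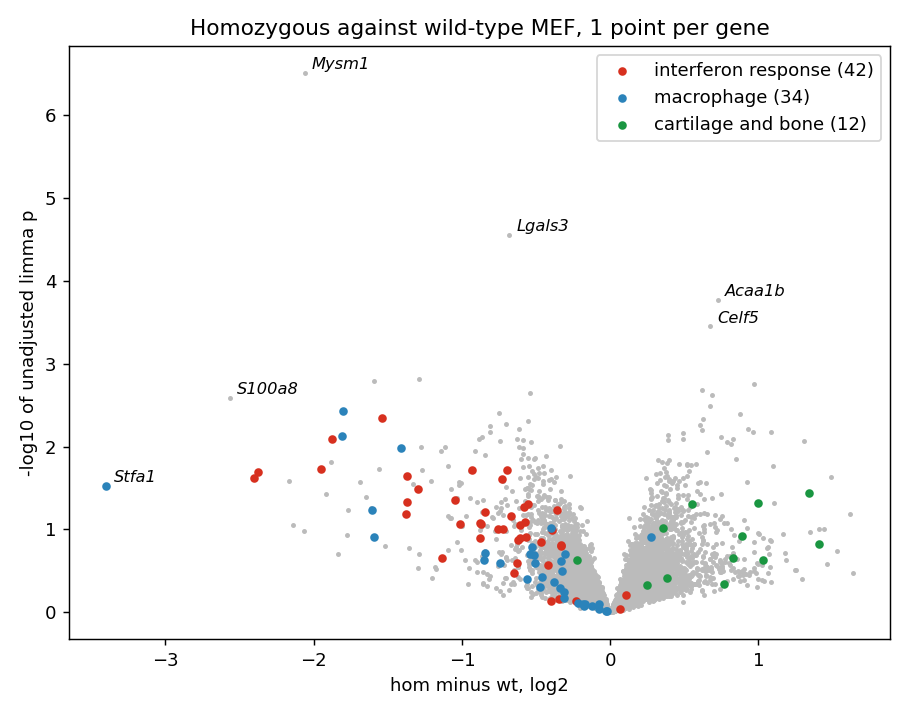
Difference between hom and wt MEF on the log2 scale (x axis) against −log10 of the unadjusted limma p (y axis), 1 point per gene for 8999 genes, with members of the interferon response, macrophage and cartilage and bone lists in colour. Mysm1 stands apart, Lgals3 comes next, and the coloured interferon genes lie almost all on the left.

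Lgals3, which encodes galectin 3, a sugar-binding protein of the cytoplasm, nucleus and cell surface, had the next smallest p after Mysm1. It was bright and steady: 10.64, 10.59, 10.54 and 10.51 in wt 1 to 4, 10.36, 10.56, 10.37 and 10.50 in het 1 to 4, and 9.94, 9.83 and 9.90 in hom 1 to 3 (gene at chr14:47373860-47386167). All 3 hom arrays lay below all 8 others. The difference of −0.68 ± 0.0978 left 62.4% of the signal in wt and did not pass over all probes (limma adjusted p = 0.211, exact permutation p = 0.0571). In a fit that adds scores on the first component it was −0.68 ± 0.0742 and passed (limma adjusted p = 0.00862). Over 21 alternatives adjusted p ran from 0.00862 to 1 and passed in 3, while the difference kept to −0.78 to −0.63. It lay at −0.78 with slide as a fixed block, a fit in which wt 4 and hom 3 carry no information.

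Other galectins did not share this pattern. Of 8 measured members of the list 5 were negative (45.8% of all genes) and 2 lay below every wt array (2.52% of all genes), Lgals3 and Lgals3bp. Lgals3bp, a secreted partner of galectins that is also induced by interferon, lay at 9.88 to 11.06 in wt and at 9.83, 9.81 and 7.91 in hom (−1.37 ± 0.609, or −0.73 without hom 3). Lgals1, another galectin of connective tissue, stood at 0.12 ± 0.105, and Lgals9 at −0.57 ± 0.340 with overlapping groups. Macrophages also make galectin 3, and the macrophage gene values are given next.

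The genes with the smallest p among those lower in hom without overlap included a group known from neutrophils, monocytes and macrophages. S100a8 and S100a9 encode the paired calcium-binding proteins of calprotectin. S100a8 lay at 8.20, 6.42, 7.20 and 7.81 in wt 1 to 4 and at 5.22, 4.43 and 4.88 in hom 1 to 3 (−2.56 ± 0.656). It was detected on 1 of 3 hom arrays, so the size of this difference is set in part by background. S100a9 lay at 6.23, 6.10, 5.54 and 6.13 in wt and was detected on no hom array (4.40, 4.49 and 4.33), which makes it at least 1.91-fold lower in hom. Both were lower than every wt array on 3 of the 4 het arrays too, with het 2 at 7.77 and 6.11 as the exception. The stefin A genes encode inhibitors of cysteine cathepsins. Among them Stfa2 was at least 2.50-fold lower in hom, Stfa1 ran from 8.06 to 12.19 in wt and from 4.45 to 8.23 in hom with 1 array overlapping, and Cstdc4 lay at 7.42, 5.51, 6.45 and 7.01 in wt and at 4.75, 5.13 and 4.49 in hom, detected on 1 of 3 hom arrays. Clec4n, the myeloid lectin dectin-2, was at least 1.39-fold lower, as was Cd274, the immune checkpoint ligand PD-L1, at least 1.40-fold. A bound of this kind sets the wt mean against the hom arrays at the lowest detected signal, or at the probe's own signal where that is higher. The limma adjusted p was 0.999 for each of these genes.

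**Figure D3:**
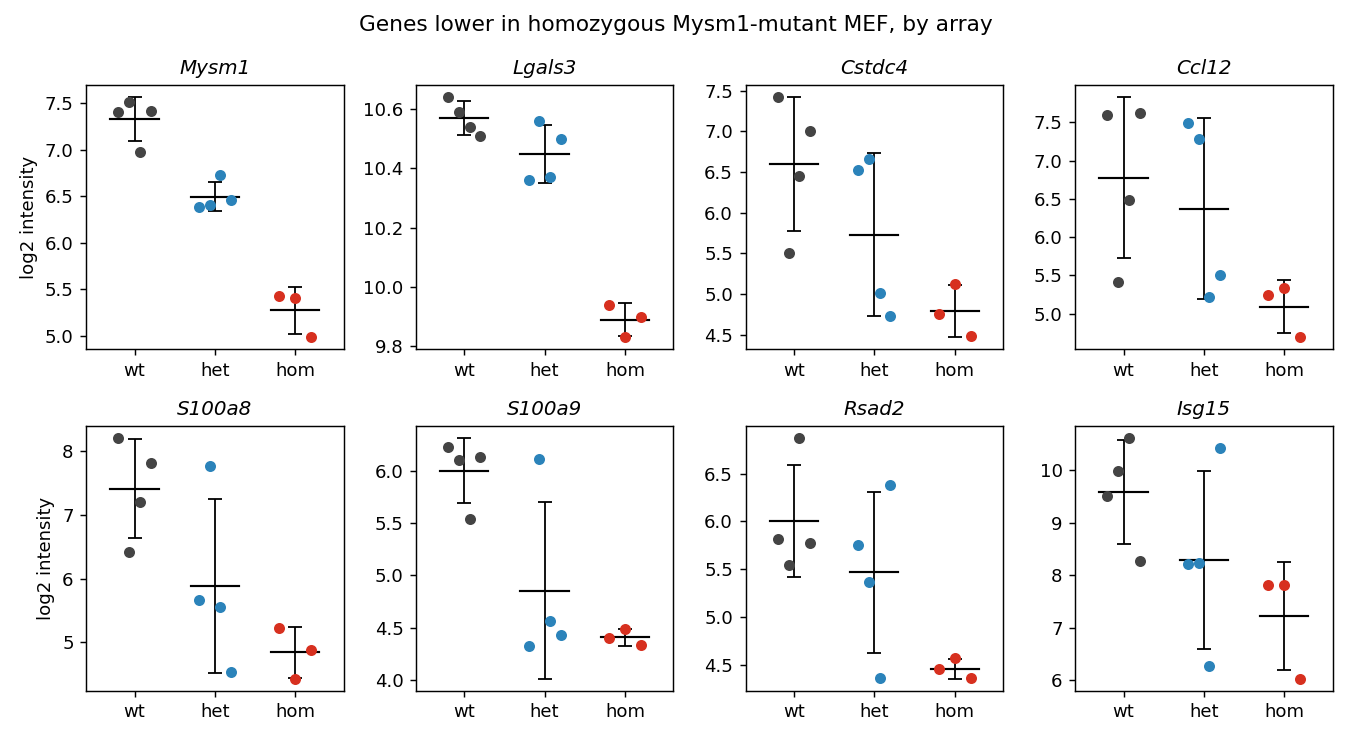
Log2 intensity of 8 genes by array (points) in wt (n = 4), het (n = 4) and hom (n = 3) MEF, with the mean and SD of each genotype as a line and bar; vertical axes differ between panels and do not start at 0. In all 8 panels every hom array lies below every wt array, and the het arrays are spread widely in all but Mysm1 and Lgals3.

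Macrophage marker genes were measured beside these values, as a MEF culture can hold macrophages of the embryo. Of 48 listed genes 34 were measured, 33 were negative, 3 lay below every wt array (2.52% of all genes) and 1 above (2.56%), with a list median of −0.39 (−0.31 with 7 members at their bound) against 0.02 over all genes, where 45.8% were negative and 54.2% positive. The list median was spread widely within wt, at 0.85, −0.94, −0.60 and 0.65 from the wt mean in wt 1 to 4, and the hom arrays at −0.27, −0.32 and −0.70 lay inside that range. Members detected in wt alone could only be lower in hom, so the list counts are a description. Defining markers were present on hom arrays and overlapped wt. Lyz2, lysozyme, lay at 10.82, 8.62, 8.90 and 10.61 in wt and at 9.58, 9.86 and 9.22 in hom. The complement gene C1qa differed by −0.02 ± 0.589, the colony-stimulating factor receptor gene Csf1r by −0.32 ± 0.309 and Adgre1, the F4/80 antigen, by −0.34 ± 0.490. The list median was −0.13 without wt 1, −0.70 without wt 2 and 0.84 with slide as a fixed block. In bulk RNA, fewer cells of a type and less RNA per cell cannot be told apart, and the part of macrophages in the lower myeloid genes was not tested.

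Once scores on component 1 entered the limma fit, 4 probes fell and 0 rose (0.0264% called), and 1703 had an unadjusted p under 0.05 (11.3%). The 4 were those of Mysm1 (−2.08, adjusted p = 0.000593), Lgals3, Cstdc4 and Ccl12. Cstdc4 stood at −2.07 ± 0.253 (adjusted p = 0.0184, from 0.0184 to 1 over 20 alternatives). Ccl12, a chemokine that draws monocytes, stood at −2.02 ± 0.266 (adjusted p = 0.0303, from 0.0303 to 1 over 20 alternatives). Ccl12 lay at 7.59, 5.41, 6.49 and 7.62 in wt and at 5.25, 5.33 and 4.69 in hom, with the lowest wt array close above the highest hom array. Both passed in this alternative alone, and with slide as a fixed block Cstdc4 was −0.18 and Ccl12 −0.040. In the same fit 24 of 34 macrophage genes, a list that holds Cstdc4 itself, were lower at an unadjusted p under 0.05, against 5.56% of all genes. So were 21 of 42 interferon response genes and 17 of 30 inflammatory secretion genes. Higher at that p were 1, 0 and 1 genes of these lists. The macrophage list median was −0.65 in this fit and 0.84 with slide as a fixed block. Component 1 was computed from these same arrays, so the counts are a description.

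Genes of the interferon response had lower values in hom than in wt MEF in 40 of 42 cases, with none past the threshold over all probes. These genes are switched on when interferons bind their receptors at the cell surface, and many of the products block virus replication. Of 61 listed genes 56 were on the array and 42 were measured, of which 18 lay below every wt array (2.52% of all genes did). The list median was −0.68, or −0.63 with 7 members at their bound, against 0.02 over all genes. A member detected in wt alone could only be lower in hom, so these counts are a description. By array, list medians lay at 0.13, −0.28, 0.43 and −0.38 from the wt mean in wt 1 to 4 and at −0.53, −0.43 and −1.16 in hom 1 to 3. All 3 hom arrays were below all wt arrays, wt 4 and hom 2 by a narrow margin. Without hom 3 the median was −0.46, with 19 of 42 members below every wt array against 9.17% of all genes.

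Sensors and transducers of the pathway were low or moderate in signal. Irf7, the factor that amplifies interferon production, lay at 4.91 to 6.35 in wt and was detected on no hom array (at least 1.25-fold lower). Its lowest wt value was under the lowest detected signal of every wt array (4.95 to 5.20), so it was not detected throughout wt either. Irf9 lay at 7.99 to 8.81 in wt and at 8.03, 8.04 and 6.77 in hom (−0.88 ± 0.460), and Stat2 differed by −0.46 ± 0.293, both with overlap. Without hom 3 these differences were −0.46 for Irf9 and −0.091 for Stat2. Ddx58, the RNA sensor RIG-I, lay at 6.06, 6.25, 6.59 and 5.61 in wt and at 5.51, 5.60 and 5.08 in hom, without overlap but with 5.60 next to 5.61.

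Effectors of the response include enzymes and modifiers of viral and host proteins. Isg15, a ubiquitin-like modifier, lay at 9.50, 9.99, 10.61 and 8.27 in wt 1 to 4 and at 7.81, 7.81 and 6.03 in hom 1 to 3 (−2.38 ± 0.871). Usp18, the protease that removes Isg15 from proteins, lay at 9.18, 9.52, 10.63 and 8.09 in wt and at 7.76, 7.61 and 5.48 in hom (−2.40 ± 0.912). The oligoadenylate synthetase family members Oas1g and Oasl2, each detected on 2 of 3 hom arrays, differed by −1.87 ± 0.578 and −1.95 ± 0.702. In all 4 genes hom 3 was lowest and wt 4 was the lowest wt array or the second lowest. Rsad2, the antiviral enzyme viperin, lay at 5.82, 5.55, 6.87 and 5.78 in wt and was detected on no hom array (at least 1.92-fold lower). Adar, the RNA-editing enzyme, differed by −0.69 ± 0.252, and Ifi207, a member of the interferon-inducible p200 family outside the list, by −1.29 ± 0.305 with 5.75, 5.76 and 5.74 in hom against 6.59 to 7.61 in wt. The het arrays were spread as widely for Isg15, at 8.21, 8.24, 6.27 and 10.42 in het 1 to 4, while for Ifi207 all 4, at 6.11 to 7.30, lay above hom.

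Promoter sequences of 4 interferon genes are shown because these genes had no overlap between hom and wt and the family is known for a shared DNA element. The letters GAAANNGAAA, or TTTCNNTTTC on the other strand, which are those of the interferon-stimulated response element, were searched on both strands in the 250 bases before each gene's start in the RefSeq promoter table (GRCm38.p6). They were present in 11 of 32 measured interferon genes with a promoter entry (34.4%), in 232 of 7326 genes tested in MEF (3.17%) and in 936 of 27025 genes of the table (3.46%). Among members below every wt array 5 of 15 held the letters (33.3%), and among overlapping members 6 of 17 did (35.3%). Sequences run 5′ to 3′ on the strand of the gene, capitals mark the matches, and overlapping matches join into 1 run.
Isg15 (chr4:156200857-156200926, minus strand): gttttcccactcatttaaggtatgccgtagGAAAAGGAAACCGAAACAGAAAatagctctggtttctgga
Oas1g (chr5:120887614-120887661, minus strand): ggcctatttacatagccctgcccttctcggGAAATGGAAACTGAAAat
Rsad2 (chr12:26456533-26456602, minus strand): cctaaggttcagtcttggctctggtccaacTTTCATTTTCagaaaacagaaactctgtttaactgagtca
Gbp3 (chr3:142559969-142560038, plus strand): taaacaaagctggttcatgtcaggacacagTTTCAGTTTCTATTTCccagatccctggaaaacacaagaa
The run in Isg15 holds 3 matches, those in Oas1g and Gbp3 hold 2 each and that in Rsad2 holds 1. Gbp3, an interferon-induced GTPase, lay at 6.52 to 7.80 in wt and 5.27 to 6.20 in hom. The share with the letters was about the same in members with and without overlap, and a match is a run of letters, not a measured binding site.

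Secreted inflammatory factors were lower by their values as well. Of 30 measured members 24 were negative (45.8% of all genes) and 10 lay below every wt array (2.52% of all genes). The median was −0.59, or −0.48 with 6 members at their bound. A member detected in wt alone could only be lower in hom, so these counts are a description. By array the medians were −0.26, −0.18, 0.01 and 0.32 in wt and −0.76, −0.64 and −0.64 in hom. Chemokines made up 7 of the 10 members without overlap. Ccl2 and Ccl7 draw monocytes. Ccl7 lay at 9.73, 10.56, 10.63 and 11.57 in wt 1 to 4 and at 8.91, 8.86 and 9.43 in hom 1 to 3 (−1.56 ± 0.561). Ccl2 lay at 7.35 to 10.26 in wt and at 6.48, 6.32 and 7.27 in hom (−2.17 ± 0.841). The neutrophil chemokine Cxcl1 differed by −1.65 ± 0.709 and the interferon-inducible Cxcl10, detected on 1 of 3 hom arrays, by −1.62 ± 0.752. Ccl5 and Cxcl9 were each at least 1.42-fold lower. Lcn2, the iron-trapping lipocalin 2, lay at 5.56 to 7.57 in wt, was detected on no hom array and was at least 2.81-fold lower. Cxcl12, a chemokine that stromal cells make without induction, differed by 0.14 ± 0.286, so not all secreted factors were lower. The limma adjusted p was 0.999 for each of these genes.

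Genes of the NF-κB pathway, which drives many of these factors, gave smaller differences. Of 24 measured members 17 were negative and 1 lay below every wt array, Sod2 at −0.37 ± 0.221 (2.52% of all genes did). The list median of −0.14 was −0.045 without wt 4. The inhibitor gene Nfkbia, itself a target of the pathway, lay at 7.71, 8.61, 8.37 and 9.83 in wt and at 7.31, 7.54 and 8.02 in hom (−1.0 ± 0.539), and Nfkbiz stood at −1.07 ± 0.437. Rela, the p65 subunit, differed by −0.12 ± 0.128. Nfkbia, Ccl2, Ccl7, Cxcl1 and Cxcl10 were each highest in wt 4 among wt arrays and in het 1 among het arrays.

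MHC class I genes were lower by less. Of 19 measured members 16 were negative, 2 lay below every wt array (2.52% of all genes) and 1 above (2.56%), with a median of −0.18 that ran from −0.46 without hom 1 to −0.057 without hom 3. H2-D1, a classical class I heavy chain, lay at 8.70, 8.36, 8.94 and 7.75 in wt and at 7.47, 7.43 and 6.98 in hom (−1.14 ± 0.374). H2-K1, near the detection limit, lay at 5.18 to 5.72 in wt and was at least 1.30-fold lower. It was detected on 3 of 4 wt arrays and on no hom array. B2m, the light chain shared by all of them, differed by −0.37 ± 0.258, and the immunoproteasome gene Psmb8 by −1.09 ± 0.540 with overlap. Class I heavy chain probes can bind transcripts of near-identical family members, which makes single members uncertain.

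A few genes lower in hom belong to none of these groups. Pdk1, a kinase that turns off pyruvate dehydrogenase, lay at 6.65, 6.74, 6.39 and 6.63 in wt, 6.58 to 6.77 in het and 6.13, 5.99 and 6.07 in hom (−0.54 ± 0.136). Like Lgals3 it was lower on all 3 hom arrays than on any of the other 8. Of 25 measured glycolysis and hypoxia genes 20 were negative (45.8% of all genes) and 2 lay below every wt array (2.52% of all genes). Their median of −0.17 was −0.094 without wt 2. Mdm4, an inhibitor of p53, was at least 1.35-fold lower. Arpc2, a subunit of the actin-branching Arp2/3 complex, lay at 8.21 to 8.66 in wt and at 7.56, 7.52 and 8.07 in hom (−0.70 ± 0.202). Slc7a11, the cystine transporter, differed by −0.74 ± 0.230, and 18 of 23 measured NRF2 target genes were negative with a median of −0.13 that was −0.071 without hom 3.

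**Figure D4:**
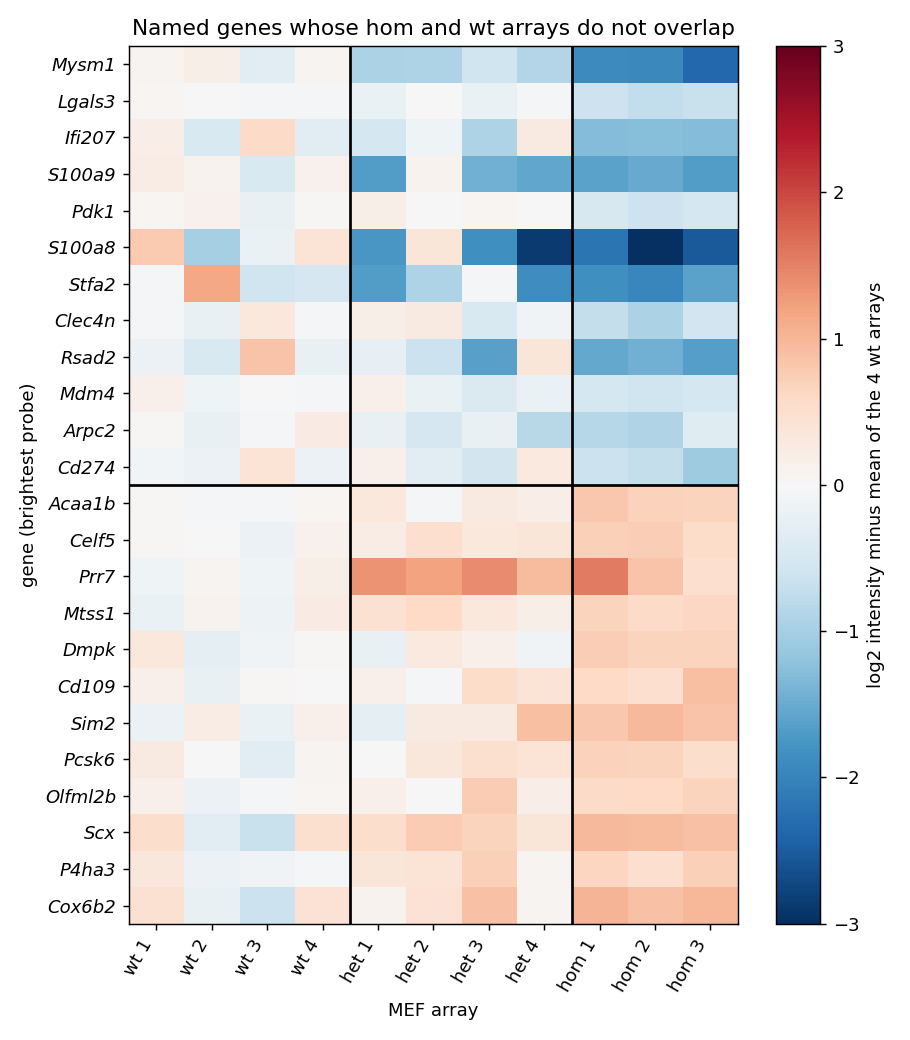
Log2 intensity minus the mean of the 4 wt arrays for the 12 lower and 12 higher genes with the smallest p among those without overlap and with a difference of at least 0.5 (rows), on the 11 MEF arrays (columns); the colour scale is clipped at −3 and 3. Rows were chosen on the hom and wt columns, so these columns differ by construction, and the het columns lie nearer to wt for Lgals3 and Pdk1 and nearer to hom for Prr7.

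The 12 named genes higher in hom all differed by less than 1 on the log2 scale. Acaa1b, a thiolase of peroxisomal fatty acid oxidation, lay at 4.83, 4.72, 4.76 and 4.85 in wt, where it was detected on no array, and at 5.60, 5.48 and 5.46 in hom, at least 1.36-fold higher (limma adjusted p = 0.844, and 0.999 for the other 11 genes). Celf5, an RNA-binding protein gene, and Mtss1, which encodes a membrane-bending protein, had bounds of 1.14-fold and 1.04-fold higher. Each was detected on 0 of 4 wt and 2 of 3 hom arrays, and the bounds use the mean of all 3 hom arrays, detected or not. Acaa1b, Celf5 and Mtss1 passed the detection filter through het and hom arrays alone. They could only be higher in hom, so their direction is a description. Prr7 lay at 5.17, 5.38, 5.15 and 5.46 in wt, at 6.63, 6.50, 6.70 and 6.25 in het and at 6.85, 6.14 and 5.79 in hom, so that all mutant arrays were above all wt arrays and het was not between the other groups. Dmpk, the kinase of the myotonic dystrophy locus, lay at 7.87 to 8.46 in wt and at 8.88, 8.79 and 8.79 in hom (0.69 ± 0.173). Cd109, a membrane protein that binds TGF-β, differed by 0.67 ± 0.178. The transcription factor gene Sim2, detected on 1 of 4 wt arrays, differed by 0.88 ± 0.240, the proprotein convertase gene Pcsk6 by 0.63 ± 0.175 and Cox6b2, a respiratory chain subunit known from testis, by 0.96 ± 0.287.

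Matrix and skeletal genes stood among the higher values. Scx, the tendon transcription factor scleraxis, lay at 6.87, 6.00, 5.68 and 6.81 in wt and at 7.31, 7.28 and 7.23 in hom (0.93 ± 0.275). Olfml2b, which encodes a matrix protein, lay at 8.80 to 9.15 in wt and at 9.55, 9.58 and 9.66 in hom, and P4ha3, a collagen prolyl hydroxylase subunit, differed by 0.62 ± 0.184. Of 12 measured cartilage and bone genes 11 were positive and 2 lay above every wt array (2.56% of all genes did). Their median was 0.80, also with 2 members at their bound, against 0.02 over all genes. It ran from 0.54 to 1.00 when single arrays were left out. A member detected on mutant arrays alone could only be higher in hom, so these counts are a description. Matn4, a matrilin of cartilage matrix, lay at 7.04, 5.92, 5.25 and 7.20 in wt and at 7.64, 7.59 and 7.86 in hom (1.34 ± 0.560), and Sox5, a chondrocyte transcription factor, differed by 0.36 ± 0.195. Matn1 owed its difference of 1.03 ± 0.822 to hom 3 at 8.03, with hom 1 and hom 2 at 4.61 and 4.58. Of 41 fibroblast and matrix genes 31 were positive and 1 lay above every wt array, Timp3, with a median of 0.19 that was 0.11 without wt 2 and 0.33 without hom 3. Eln, elastin, lay at 12.27, 9.49, 9.11 and 12.07 in wt and at 12.77, 12.87 and 11.40 in hom, a spread within wt wider than the difference of 1.62 ± 0.785.

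Several other groups had positive medians with few members clear of wt. Of 18 measured cholesterol synthesis genes 17 were positive and 0 lay above every wt array. Their median of 0.39 was 0.23 without wt 2 and 0.60 without hom 3. Of 29 measured p53 targets 23 were positive, 5 lay above every wt array (2.56% of all genes) and 1 below (2.52%), and the median of 0.23 was 0.13 without hom 3. Dcxr, a carbonyl reductase, was the member with the smallest p, at 8.26, 7.70, 7.19 and 7.76 in wt and 8.87, 8.50 and 8.29 in hom, while the classical targets Cdkn1a and Mdm2 differed by 0.26 ± 0.473 and 0.02 ± 0.516. Of 22 measured imprinted genes 17 were positive, 0 lay above every wt array and 1 lay below, the amino acid transporter gene Slc38a4. The median of 0.15 ran from 0.076 without wt 3 to 0.29 without hom 3. Cdkn2a, a locus that Polycomb complexes silence, was near the detection limit at 4.72 to 5.32 in wt and 4.55 to 5.21 in hom (−0.08 ± 0.256).

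**Figure D5:**
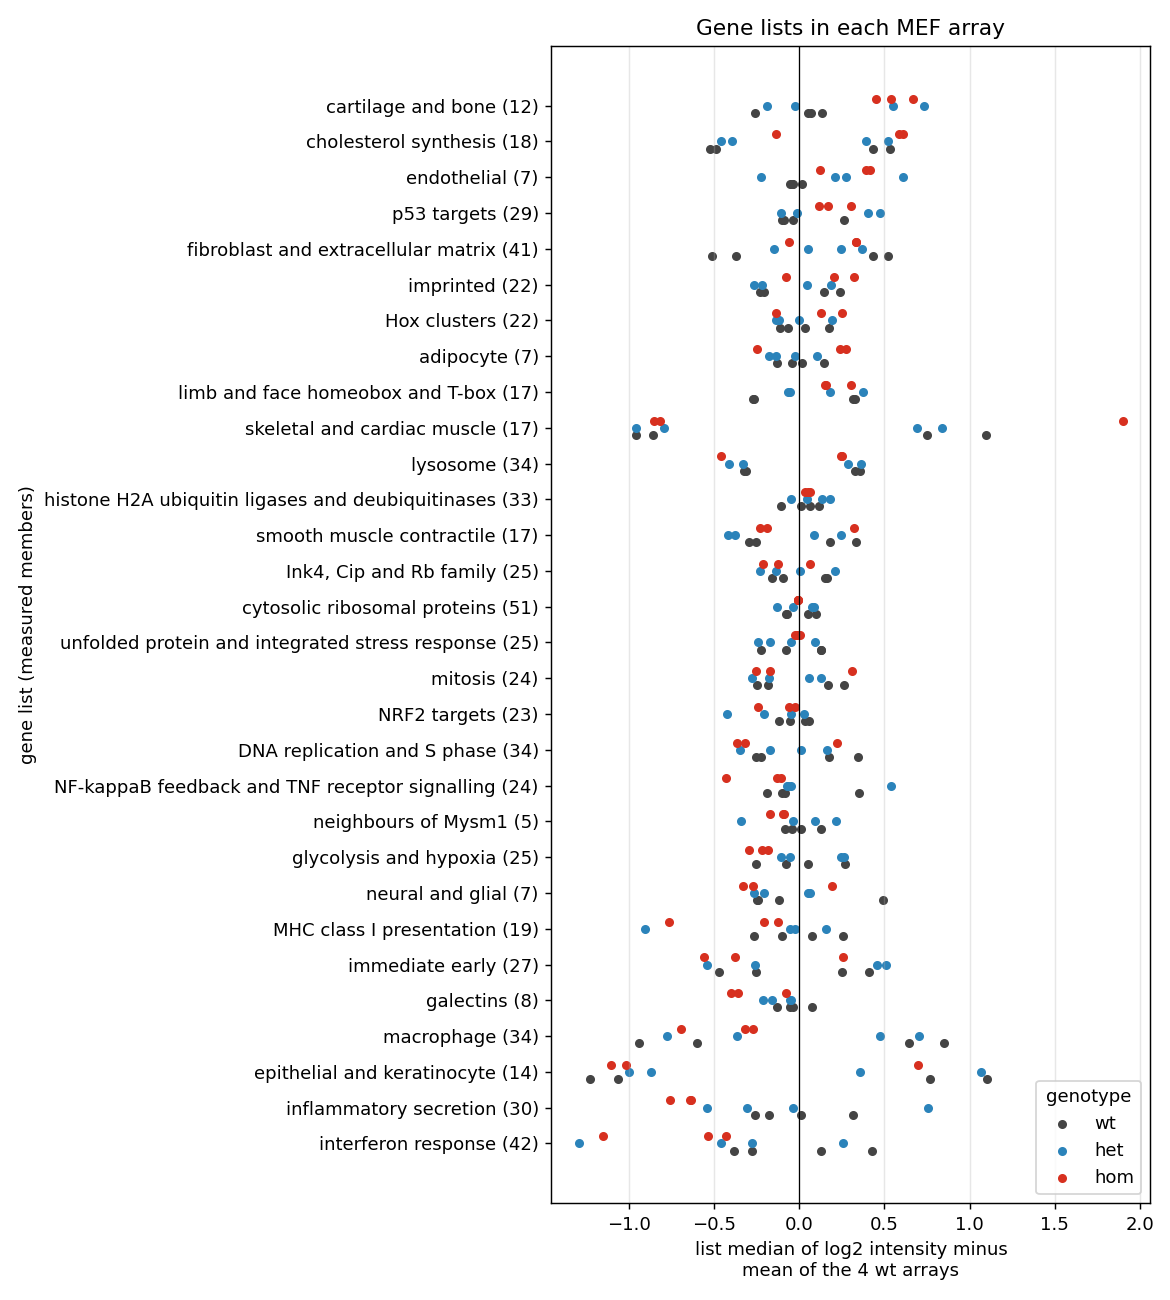
Median over the measured members of each gene list (number in brackets) of log2 intensity minus the mean of the 4 wt arrays, 1 point per MEF array, coloured by genotype. The 3 hom points lie left of all wt points for interferon response, inflammatory secretion and, by a narrow margin, the 5 neighbours of Mysm1. They lie right of all wt points for cartilage and bone and for the 7 endothelial genes. Het 3 lies beyond all hom points for interferon response, at −1.30, and for cartilage and bone, at 0.73. Skeletal muscle and epithelial lists split each genotype, while the macrophage list splits wt and het, with the 3 hom points inside the wt range.

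Groups tied to the known chemistry of MYSM1, and those set beside them here, had medians from −0.16 to 0.12, against 0.02 over all genes. Of 33 measured histone H2A ubiquitin ligases and deubiquitinases 23 were positive (54.2% of all genes), with a median of 0.04. Among them 1 lay below every wt array, Brcc3 (2.52% of all genes), and 1 above (2.56%). Ring1 and Bmi1, subunits of the Polycomb complex that ubiquitinates H2A, differed by 0.19 ± 0.276 and 0.04 ± 0.207, and the H2A deubiquitinase genes Usp16 and Bap1 by 0.11 ± 0.142 and −0.02 ± 0.211. Hox genes, which Polycomb complexes silence, had a median of 0.12 over 22 members, with none clear of wt in either direction. Cytosolic ribosomal protein genes had a median of −0.02 over 51 members. Of 9 genes of blood cells named as MYSM1 targets 4 were measured, Ebf1, Id2, Gata2 and Runx1, at 0.10, 0.25, 0.08 and −0.40, all with overlap. Of 5 measured genes within 1 Mb of Mysm1 none was clear of wt, but their median of −0.16 was separated by array, at −0.171, −0.091 and −0.094 in hom and −0.082 to 0.125 in wt. Among them Jun, a subunit of the transcription factor AP-1, differed by −0.35 ± 0.335.

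Muscle and epithelial markers split each genotype along the first component. Skeletal and cardiac muscle genes lay at −0.86, 0.75, 1.10 and −0.96 from the wt mean in wt 1 to 4 and at −0.82, −0.86 and 1.90 in hom 1 to 3. Epithelial and keratinocyte genes lay at −1.23, 1.10, 0.77 and −1.06 in wt and at −1.02, −1.11 and 0.69 in hom. Among 14 erythroid genes on the array 0 were measured. Xist, the transcript of the inactive X chromosome, was at 6.12 and 6.77 in wt 2 and wt 4 and at 6.74 and 6.73 in hom 1 and hom 2, against 4.24 to 4.38 on the other wt and hom arrays, so that both groups held arrays with and without it. The part of embryo sex in the results was not tested.

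The het and ESC values stand beside those of hom MEF. Het and hom MEF were compared with the same 4 wt arrays, so their differences are not independent. Het minus wt was −0.12 for Lgals3, where hom minus wt was −0.68, and −1.53 for S100a8, where hom minus wt was −2.56 with detection on 1 of 3 hom arrays. List medians for het minus wt were −0.47 for interferon response, −0.11 for inflammatory secretion and 0.30 for cartilage and bone genes. By array, het 3 lay at −1.30 from the wt mean for interferon response, −0.54 for inflammatory secretion and 0.73 for cartilage and bone. For interferon response and for cartilage and bone it lay beyond all hom arrays. The ESC arrays share none with MEF, and there the hom minus wt medians of these 3 lists were −0.01, 0.01 and 0.02. Many of these genes were not detected in ESC: Isg15, Usp18, S100a8 and Cstdc4 were detected on none of the wt or hom ESC arrays. Lgals3, detected on all of them, differed by 0.45 ± 0.4 in ESC (limma adjusted p = 0.929), so its sign there was not resolved. The test of the difference between cell types gave −1.15 ± 0.548 for Lgals3 (limma adjusted p = 0.960). Mysm1 fell in MEF. Its difference in ESC was −2.04 ± 0.473 and did not pass (limma adjusted p = 0.208), with detection on 2 of 3 hom ESC arrays. Between the cell types the Mysm1 difference was 0.02 (limma adjusted p = 0.998). Plac8, lower in hom MEF at 8.55 to 8.91 against 9.36 or more in wt and higher in hom ESC by 1.06, was singled out after its values were seen (−1.96 between cell types, adjusted p = 0.307). Of 17067 probes tested over all 20 arrays 0 differed between cell types in their response to the homozygous allele in limma (0% called), with 884 at an unadjusted p under 0.05 (5.18%).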

How the data were processed

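Total RNA from 20 samples was read on Illumina bead arrays. The deposited non-normalized table gives, per the file headers, an intensity (mean bead signal on a linear scale), its standard error over beads, a bead count and a detection p-value for each probe and array. The deposited series matrix holds intensity values normalized by the authors. BeadStudio and limma are named in the submitters' processing notes, where their versions are missing. Their model is not given in the sources used here. Starting from these intensities, limma 3.58.1 in R 4.3.3 applied a normexp correction with control signal inferred from the detection p (936 control beads implied), with an offset of 16, then log2 and quantile normalization within the 11 MEF arrays. Groups, tests and alternatives follow the labels: lmFit and eBayes with a trend over wt, het and hom (8 residual degrees of freedom), and for the cell type interaction all 20 arrays (17067 probes, 14 degrees of freedom). Signal over background limits dim probes, and 42.5 to 45.5 beads were read per probe. All columns matched a sample.

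Of 45281 probes 34885 matched 1 gene, 18 several and 10378 none in GEO's platform annotation, updated through RefSeq symbols. Named genes were Mysm1 and Lgals3, the 12 lower and 12 higher genes with the smallest p among those without overlap and with a difference of at least 0.5, the genes called once component 1 was added, and up to 4 members of each list by smallest p. Further genes were named by role after their values were seen. The members, the 33 gene lists and this rule were chosen with earlier results of these data known. Different probes of Timp3, Rfc2, Rpl31, Pfkl, Ift74, Ebf1, Comp, Col3a1, Cd63, Cdc20 and Mdm2 gave differences of opposite sign. Settings varied were the filter on dim probes, slide, replicate number, component 1, array weights, the variance trend, normalization and its set of arrays, background correction, the authors' matrix and each wt or hom array left out in turn. Nothing states that arrays of a group are separate embryos rather than cultures of 1, beyond the number of animals, so p-values measure the spread between these samples. The method was tested on simulated data. Figures were drawn with matplotlib 3.10.9.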

Additional observations from a re-analysis of the deposited data

Results flagged for a closer look

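Among the 4 het arrays, S100a9 stood at 6.11 in het 2 against 4.32 to 4.56 in the other 3, a gap wider than expected within a group of 4. The median of the NF-κB list lay 0.54 above the wt mean in het 1 against −0.07 to −0.05 in the other het arrays. These were 2 of 118 groups of 4 arrays examined, and chance gives about 1 in 20.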

How the results depend on the processing

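The number of probes past the threshold, 1 in the fit as described, was 0 with only wt and hom arrays (421 probes at an unadjusted p under 0.05), with probes detected on every MEF array (270), with slide as a fixed block (2241) and with the replicate block (365), 2 with slide as a random block and with array weights, and 4 with the first principal component, and stayed at 1 when any 1 wt or hom array was left out (het arrays were not left out). Mysm1 missed the threshold at −2.05 with only wt and hom arrays (adjusted p = 0.13), at −1.85 with slide as a fixed block (0.32) and at −2.05 with the replicate block (0.164), fits with 5 residual degrees of freedom in place of 8, and its own probe was left out where detection on every array was asked. Replicate numbers were not taken to pair samples, as deviations from group means correlated at −0.818 to 0.802 between same-numbered arrays and at −0.826 to 0.818 between others, with 3 of 11 arrays closest to their own number. Leaving out single arrays gave −2.17 to −1.91 for Mysm1. Lgals3 passed at −0.67 with slide as a random block (0.0414), at −0.68 with the first component (0.00862) and at −0.71 with array weights (0.0359), and ran from −0.71 to −0.65 when single arrays were left out. No named gene past the threshold changed sign under these alternatives. With slide as a fixed block, where het 4 is the sole bridge between hom and wt, the macrophage median turned from −0.39 to 0.84, the NF-κB median from −0.14 to 0.18 and the p53 target median from 0.23 to −0.17, while interferon, at −1.57, and inflammatory secretion, at −0.65, stayed negative. The cause of these shifts was not tested. The interaction with cell type gave 0 probes under all 19 alternatives.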
